A study of Homo sapiens with 10 samples.

Results

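The genes described here encode the proteasome of human cells: the subunits of its core and regulatory particles, the proteins that activate or inhibit it, and the factors that assemble it. They were taken by symbol from the platform annotation, as every symbol that begins with PSMA, PSMB, PSMC, PSMD, PSME, PSMF or PSMG, together with POMP. The rule found 47 of the 18665 genes on the platform that have a single symbol. Of these 47, 44 belong to the proteasome by role. The other 3 symbols are PSMC3IP, which encodes a partner of meiotic recombination proteins, the PSME3 interactor PSME3IP1 and the noncoding RNA PSMD6-AS2. PSMA7, PSMC5, PSMD7, PSMD13 and PSMG4 were not analysed here.

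RNA came from NCI-H441, a single established human lung adenocarcinoma line. The treated cells received 1 µM CLEFMA, a synthetic curcuminoid dissolved in DMSO, for 12 h, and the control cells received DMSO alone for the same time, at 0.1% in both groups. One label calls the controls untreated, but per the treatment protocol they carried the vehicle. Each group has 5 arrays (Illumina HumanWG-6 bead arrays), numbered 1 to 5. The labels give 4 wells per group in the treatment protocol and 3 biological replicates in the extraction protocol, so nothing settles that the 5 arrays are separate cultures. The p-values therefore measure only the spread between these arrays, which may be technical.

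The proteasome degrades proteins that carry ubiquitin chains. Its core is a barrel of alpha rings, which gate the entry, and beta rings, in which PSMB5, PSMB6 and PSMB7 hold the protease sites. Interferon-inducible subunits can take the place of these catalytic subunits and form the immunoproteasome, and regulatory particles on the ends of the barrel bind, unfold and feed in the substrate. In human cells the transcription factor NFE2L1 (also called NRF1) raises most subunit genes together when proteasome activity is short, and NRF2, the factor of the oxidant response, has been tied to some of them in rodent and human cells.

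All 10 epithelial and lung adenocarcinoma markers examined, among them EPCAM, KRT18, NKX2-1 and NAPSA, were above background on all 10 arrays. Above background here means a deposited value over 0.2 (log10, the base being an assumption). Of the 10 epithelial markers, 9 had negative differences (treated minus control, log2), among them CDH1 at −0.26 (limma unadjusted p = 0.0264, adjusted p = 0.488) and KRT8 at −0.24 (limma unadjusted p = 0.0423, adjusted p = 0.539). The list's mean log2 level was 9.92 to 10.09 on control and 9.83 to 9.95 on treated arrays. Of 10 leukocyte markers measured, 4 were above background on all arrays. These were CD68, LYZ, CD14 and MS4A1, with mean log2 control levels of 8.42, 4.27, 2.89 and 2.81. ITGAM was above background on none, PTPRC on 3 control and 2 treated arrays, and CD3D on 0 control and 4 treated arrays. The mean log2 level over the leukocyte list was 2.99 to 3.23 on control and 3.09 to 3.25 on treated arrays. The fibroblast list (8 measured, COL3A1 and POSTN above background on none) was at 3.25 to 3.38 and 3.22 to 3.33. Its 4 genes above background on all arrays were LUM, COL1A1, PDGFRA and DCN, at mean control levels of 7.28, 6.26, 3.54 and 2.63. The part of these lists in the results was not tested. Control 3 stood apart: over all genes it correlated with the remaining arrays at 0.979 on average, and each of the rest did so at 0.987 to 0.992. Fewer cells of a kind and less RNA per cell cannot be told apart in such bulk samples.

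Most subunit genes of the standard core and of the regulatory particle had higher levels in treated than in control cells: 19 of 27 tested were higher at an unadjusted limma p under 0.05, by 1.20-fold to 1.50-fold. Of the 16 inducible subunits, activators and assembly factors tested, 2 were, and of all genes tested 4.48% were. The 16 include PSMB9, PSMB11 and PSMF1, which were at or near background, whereas the 27 were all above background on every array. The 27 and the 16 were not compared in a test. None of the differences of proteasome genes passed adjustment over all genes. Of the 44 proteasome genes, 43 were tested, 40 of them above background on all 10 arrays. PSMA8, a testis alpha subunit, was above background on no array and did not pass the filter on dim probes. The fitted difference, treated minus control on the log2 scale, was positive for 38 of the 43 and negative for 5, where 51.5% of all 17752 genes tested were positive. The 38 include PSMB11, which was above background on no array. Its controls all had the lowest value (1.58), and it passed the filter only through treated 2 (1.76). Its difference could therefore not be negative, here or in the counts of positive differences with arrays left out. The median difference was 0.26, against 0.0067 over all genes tested.

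No proteasome gene passed limma's test over all genes at an adjusted p under 0.05, a level that 0.265% of all genes passed as higher and 0.0338% as lower. The lowest adjusted p among them was 0.17, for PSMB5. At an unadjusted limma p under 0.05, 21 of the 43 were higher (48.8%) and 0 were lower, where 4.48% of all genes tested were higher and 4.48% lower. Among the 11182 genes above background on all arrays, 5.61% were higher, 5.43% lower and 52.4% positive. In 16 of the 43 (37.2%) every treated array lay above every control array, against 1.46% of all genes tested and 2.11% of those above background on all arrays. In 0 of the 43 every treated array lay under every control array, against 1.04% and 1.42%. The members were measured on the same 10 arrays, so these counts are not of independent genes. Counts by role group below are to be read beside the same shares of all genes tested, 4.48% higher and 1.46% without overlap.

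**Figure D1:**
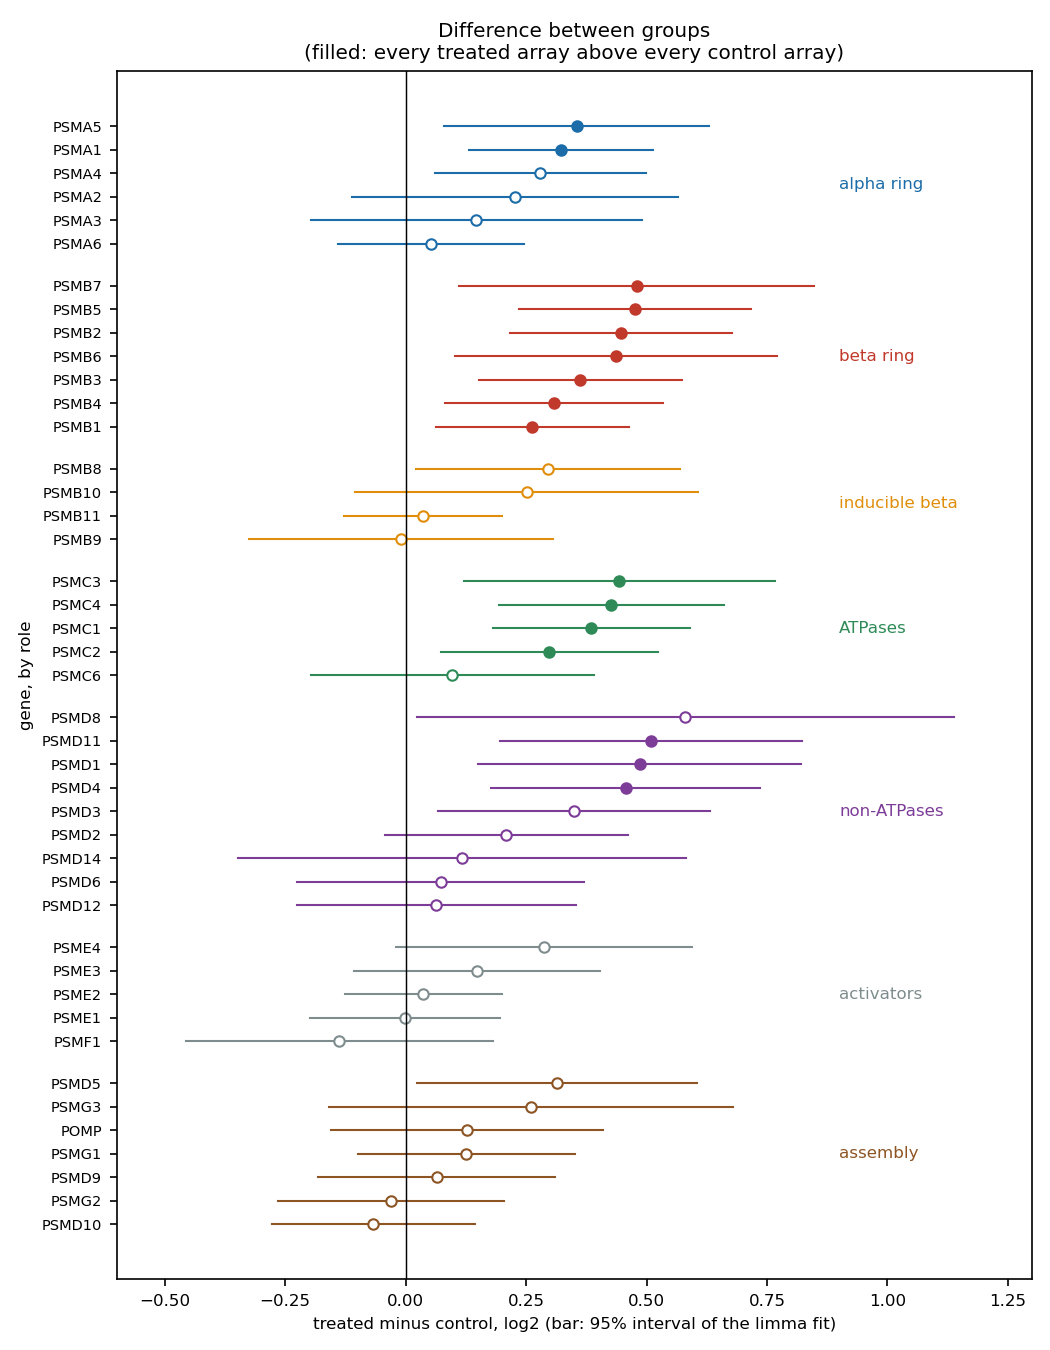
Fitted log2 difference, treated minus control (horizontal axis), for the 43 proteasome genes tested, by role (vertical axis), with bars for the 95% interval of the limma fit over 5 control and 5 treated arrays; filled points are genes whose treated arrays all lie above all control arrays. All 7 standard beta subunits are filled and lie between 0.26 and 0.48, while no activator, assembly factor or inducible beta subunit is filled.

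In the standard beta ring, which holds the protease sites, all 7 of its genes, PSMB1 to PSMB7, were higher at an unadjusted p under 0.05, and in all 7 the groups did not overlap. Their median difference was 0.44 and their range 0.26 to 0.48. PSMB5, which holds the chymotrypsin-like site, was at log2 levels of 8.44, 8.56, 8.31, 8.67 and 8.61 on controls 1 to 5 and at 8.84, 8.92, 8.94, 8.96 and 9.32 on treated arrays 1 to 5. The lowest treated array stood above the highest control, with treated 5 well above the rest. The difference was 0.48 ± 0.11 (SE, n = 5 per group), or 1.39-fold (limma unadjusted p = 0.00103, adjusted p = 0.17).

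PSMB6, with the caspase-like site, was at 10.08, 9.98, 9.27, 10.05 and 10.09 on controls 1 to 5 and at 10.12, 10.39, 10.30, 10.41 and 10.43 on treated arrays 1 to 5. Control 3 lay far under the other controls, whose highest value was only just under the lowest treated one. The difference of 0.44 ± 0.15 (limma unadjusted p = 0.0145, adjusted p = 0.446) was 0.28 without control 3. PSMB7, with the trypsin-like site, was at 9.12, 9.31, 8.41, 9.33 and 9.37 on controls 1 to 5 and at 9.42, 9.61, 9.54, 9.59 and 9.78 on treated arrays 1 to 5. Its groups did not overlap either, by a small gap, and control 3 was again the low array. The difference of 0.48 ± 0.17 (limma unadjusted p = 0.0151, adjusted p = 0.449) was 0.30 without control 3. PSMB1, a structural beta subunit and the one that differed least, was at 10.58, 10.59, 10.33, 10.50 and 10.65 on controls 1 to 5 and at 10.68, 10.73, 10.75, 10.85 and 10.95 on treated arrays 1 to 5, a difference of 0.26 ± 0.092 (limma unadjusted p = 0.0144). The other structural subunits differed by 0.45 ± 0.11 for PSMB2, 0.36 ± 0.097 for PSMB3 and 0.31 ± 0.10 for PSMB4. All 7 beta subunits were lowest on control 3 and highest on treated 5. Without these 2 arrays all 7 had an unadjusted limma p under 0.05, with differences of 0.17 to 0.35 and a median of 0.26.

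**Figure D2:**
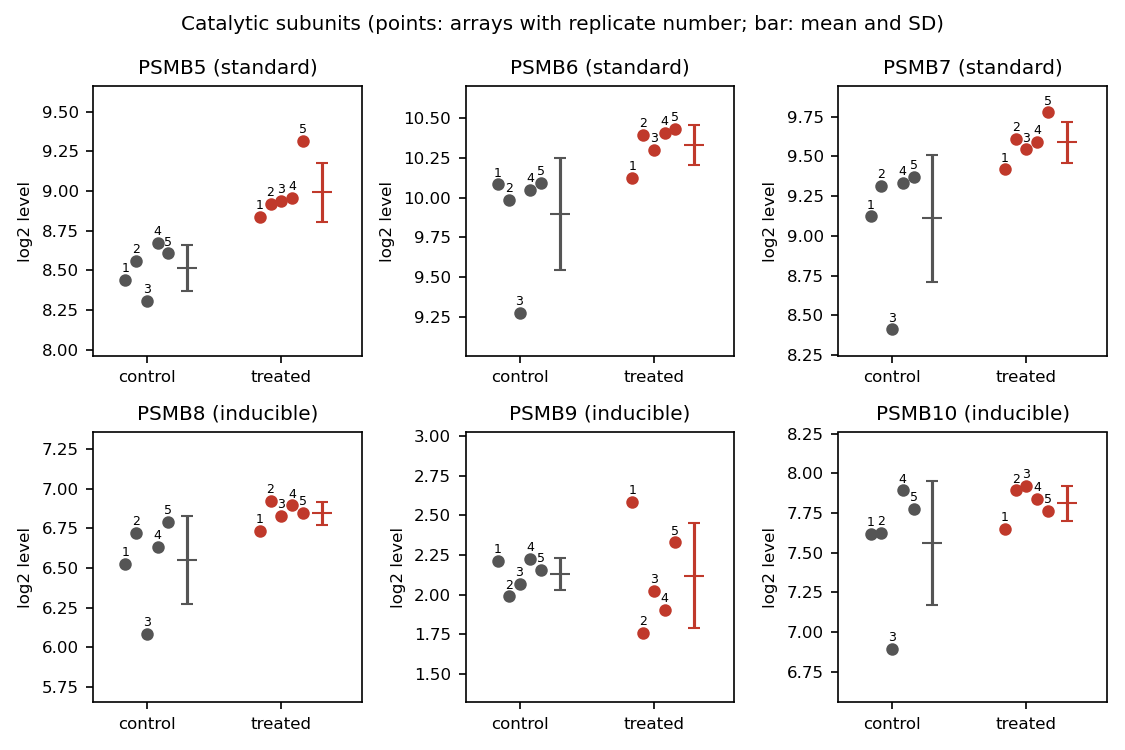
Log2 level (vertical axis, the same span of units in each panel) of the 3 standard catalytic subunits in the upper row and of the inducible subunits that can replace them in the lower row; each point is an array with its replicate number, and the bar gives the mean and SD of 5 arrays. In the upper row the treated arrays lie above all controls; in the lower row the groups overlap, and control 3 is the low point for PSMB8 and PSMB10.

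Promoters are shown for 7 genes: PSMB5, for its place as the gene with the lowest p, the 3 genes without overlap that hold an antioxidant core, and PSMB10, PSME1 and PSME2, which hold an interferon element. Sequences are RefSeq windows of GRCh38.p14 from 250 bases before to 50 after the first start site listed for a gene, read 5′ to 3′ on the gene's strand. Such a window was given for 39 of the 44 proteasome genes, and not for PSMB1, PSMB6, PSMB7, PSMD4 and PSMG3. Capitals mark letters found on either strand: the core of the antioxidant response element that NRF2 binds (TGACNNNGC, whose first letters also begin the AP-1 site), the interferon-stimulated element (GAAANNGAAA) and the CCAAT box (CCAAT). PSMB5 (chr14:23035171-23035470, minus strand) has a CCAAT box 164 bases before the start site and no match to the antioxidant core, and PSMB3 (chr17:38752491-38752790, plus strand) has that core 104 bases before it and a pair of CCAAT boxes.
PSMB5: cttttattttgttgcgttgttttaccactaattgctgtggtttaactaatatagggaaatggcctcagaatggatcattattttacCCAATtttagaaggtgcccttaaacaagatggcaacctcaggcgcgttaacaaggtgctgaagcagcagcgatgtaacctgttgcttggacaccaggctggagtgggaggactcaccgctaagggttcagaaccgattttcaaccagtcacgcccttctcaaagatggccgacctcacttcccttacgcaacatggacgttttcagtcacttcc
PSMB3: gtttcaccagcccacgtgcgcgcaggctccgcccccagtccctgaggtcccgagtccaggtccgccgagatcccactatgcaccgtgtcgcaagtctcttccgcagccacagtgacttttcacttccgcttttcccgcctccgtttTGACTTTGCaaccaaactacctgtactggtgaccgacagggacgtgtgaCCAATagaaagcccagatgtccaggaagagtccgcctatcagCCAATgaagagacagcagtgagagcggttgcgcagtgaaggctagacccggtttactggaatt

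Among the windows the antioxidant core was found in 13 of 39 (33.3%), against 14.7% of the 14102 windows of genes tested on the arrays and 13.6% of all 27305 windows. It was in 3 of the 12 windows of genes whose groups did not overlap (25%) and in 10 of the 26 of proteasome genes tested whose groups did (38.5%). The groups of PSMB1, PSMB6, PSMB7 and PSMD4 did not overlap either, but these genes had no window. The CCAAT box was in 17 of 39 (43.6%), against 36.8% of the windows of genes tested. The interferon-stimulated element was in 5 of 39 (12.8%), against 3.15%. The 5 were the standard subunits PSMA4 and PSMB4, and PSMB10, PSME1 and PSME2. The windows of the inducible PSMB8 and PSMB9 did not hold it. All these figures are counts of letters in a short window and not of bound sites.

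Of the inducible subunits, PSMB8 and PSMB10 were measured on all arrays, and PSMB9 and the thymus subunit PSMB11 were at or near background. PSMB8, the counterpart of PSMB5, was at 6.52, 6.72, 6.08, 6.63 and 6.79 on controls 1 to 5 and at 6.73, 6.92, 6.83, 6.89 and 6.85 on treated arrays 1 to 5. Treated 1 lay under control 5, so the groups overlapped. The difference was 0.30 ± 0.13 (limma unadjusted p = 0.0371, adjusted p = 0.526), and 0.18 without control 3. The other 2 PSMB8 probes above background on all arrays differed by 0.28 and 0.18, and the dimmest probe, above it on 4 arrays of each group, by −0.22.

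PSMB10, the counterpart of PSMB7, was at 7.62, 7.62, 6.89, 7.89 and 7.78 on controls 1 to 5 and at 7.65, 7.89, 7.92, 7.84 and 7.76 on treated arrays 1 to 5. Controls 4 and 5 lay within the treated values and control 3 far under them. The difference of 0.25 ± 0.16 (limma unadjusted p = 0.15, adjusted p = 0.637) was 0.084 without control 3. PSMB9, the counterpart of PSMB6, was at 2.21, 1.99, 2.07, 2.23 and 2.16 on controls 1 to 5 and at 2.58, 1.76, 2.03, 1.90 and 2.33 on treated arrays 1 to 5. It was above background on 2 arrays of each group, and its difference of −0.01 ± 0.14 took either sign across the alternative settings. PSMB11 was above background on no array. The PSMB10 window (chr16:67936801-67937100, minus strand) holds the interferon-stimulated element 21 bases before the start site and no antioxidant core.
PSMB10: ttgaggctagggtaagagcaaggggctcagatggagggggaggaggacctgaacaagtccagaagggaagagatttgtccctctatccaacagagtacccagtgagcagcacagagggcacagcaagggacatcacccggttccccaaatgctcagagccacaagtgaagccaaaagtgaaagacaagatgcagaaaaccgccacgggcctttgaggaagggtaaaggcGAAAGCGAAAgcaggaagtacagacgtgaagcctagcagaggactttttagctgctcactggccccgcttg

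Each standard catalytic subunit was set against its inducible counterpart, as the log2 level of the first minus that of the second on each array. This asks whether the pair changed unequally and says nothing of which is the more abundant. The change in this value from control to treated was 0.23 ± 0.078 (SE) for PSMB7 and PSMB10, and 0.18 ± 0.11 for PSMB5 and PSMB8, toward the standard subunit in both. For PSMB6 and PSMB9 it was 0.45 ± 0.24, but PSMB9 was above background on only 2 arrays of each group, so this value has no direction for the inducible partner. In exact permutation tests over the 10 arrays (two-sided, smallest possible p 0.00794) the p-values were 0.0159, 0.143 and 0.103. Adjusted over the 3 pairs they were 0.0476, 0.143 and 0.143. The call for PSMB7 and PSMB10 did not hold when any 1 of controls 1, 4 or 5 or of treated arrays 2, 4 or 5 was left out (differences of 0.17 to 0.24 and adjusted exact p = 0.0952 in each). For PSMB5 and PSMB8 the adjusted exact p was 0.0476 without control 3, and for PSMB6 and PSMB9 it was 0.0238 without treated 1, on which PSMB9 was highest. The value for PSMB6 and PSMB9 was 0.50 with an offset of 1 unit, 0.43 with 12 and 0.65 on the deposited values with none.

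Genes of antigen processing and the interferon response are often induced with the immunoproteasome. Of 9 measured, 0 were higher and 0 lower at an unadjusted limma p under 0.05, and 0 at an adjusted one. Over all genes tested, 4.48% were higher and 4.48% lower at the unadjusted level. The median difference of the 9 was −0.028. TAP1, a peptide transporter subunit whose gene lies next to PSMB9, differed by 0.19 ± 0.15. The interferon-response factor gene IRF1 had the largest difference of the list and a wide error, 0.43 ± 0.37 (limma unadjusted p = 0.274). The class I light chain gene B2M differed by −0.06 ± 0.077.

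In the alpha ring, which gates the core, 3 of 6 genes tested were higher at an unadjusted p under 0.05 and the groups did not overlap in 2, with a median of 0.25 that was 0.16 without treated 5. PSMA5 was at 9.11, 9.09, 8.99, 9.14 and 9.20 on controls 1 to 5 and at 9.28, 9.29, 9.38, 9.39 and 9.95 on treated arrays 1 to 5. The treated arrays were all above the controls, and treated 5 stood out. The difference of 0.36 ± 0.13 (limma unadjusted p = 0.0156, adjusted p = 0.45) was 0.23 without treated 5. PSMA1 differed by 0.32 ± 0.088 with groups that did not overlap (limma unadjusted p = 0.00314). A second PSMA1 probe, annotated to another transcript, differed by 0.67 ± 0.13 (limma unadjusted p = 3.58e-04 in the fit over probes, adjusted p = 0.143), the largest difference of any proteasome probe. PSMA4 differed by 0.28 ± 0.10 (limma unadjusted p = 0.0163), and its second bright probe by 0.054.

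PSMA6 was at 10.82, 10.67, 10.79, 10.52 and 10.69 on controls 1 to 5 and at 10.66, 10.63, 10.78, 10.82 and 10.86 on treated arrays 1 to 5. These values overlapped almost fully, with a difference of 0.053 ± 0.088 whose 95% interval was −0.14 to 0.25. PSMA2 differed by 0.23 ± 0.15 and PSMA3 by 0.15 ± 0.16. The difference of PSMA2 was 0.09 without treated 5, and that of PSMA3, which was highest on control 3, was 0.30 without that array (limma unadjusted p = 0.0139). A p that misses the threshold does not show that these subunits behaved otherwise than the rest of the ring.

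The regulatory particle unfolds substrates with a ring of ATPases. Of the 5 ATPase genes measured, 4 were higher at an unadjusted p under 0.05 with groups that did not overlap, and the median difference was 0.39. PSMC3 was at 8.35, 8.34, 7.57, 8.19 and 8.35 on controls 1 to 5 and at 8.39, 8.67, 8.60, 8.71 and 8.65 on treated arrays 1 to 5. Its treated arrays lay above the controls, by 0.037 at the closest, and control 3 was the low array. The difference was 0.44 ± 0.15 (limma unadjusted p = 0.0112, adjusted p = 0.42), and 0.30 without control 3. PSMC4 differed by 0.43 ± 0.11, with its other 2 probes at 0.47 and 0.60. PSMC1 differed by 0.39 ± 0.094 and PSMC2 by 0.30 ± 0.10. PSMC6 was the exception, at 9.36, 9.18, 9.47, 9.08 and 9.08 on controls 1 to 5 and at 9.16, 9.05, 9.29, 9.41 and 9.74 on treated arrays 1 to 5, where the groups overlapped. Its difference was 0.097 ± 0.13, that of its second probe −0.20, and that without treated 5 −0.0063.

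Of the 9 non-ATPase subunits of the regulatory particle, which recognise ubiquitin, remove it and hold the particle together, 5 were higher at an unadjusted p under 0.05 and 3 had groups that did not overlap. Their median difference was 0.35. PSMD11, a lid subunit, was at 5.92, 5.81, 5.97, 5.72 and 5.70 on controls 1 to 5 and at 6.18, 6.09, 6.16, 6.33 and 6.89 on treated arrays 1 to 5. The groups did not overlap, and treated 5 was the high array. The difference was 0.51 ± 0.14 (limma unadjusted p = 0.00404, adjusted p = 0.298), and 0.37 without treated 5. PSMD4, a ubiquitin receptor, was at 8.41, 8.49, 7.87, 8.49 and 8.57 on controls 1 to 5 and at 8.70, 8.81, 8.85, 8.81 and 8.94 on treated arrays 1 to 5. All treated arrays lay above all controls. The difference was 0.46 ± 0.13 (limma unadjusted p = 0.00385, adjusted p = 0.294), and its second probe differed by 0.45. PSMD1, a scaffold of the base, differed by 0.49 ± 0.15 with groups that did not overlap.

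PSMD8, a lid subunit, had the largest fitted difference of all proteasome genes and the largest error. It was at 7.30, 7.24, 5.95, 7.22 and 7.65 on controls 1 to 5 and at 7.37, 7.78, 7.65, 7.66 and 7.80 on treated arrays 1 to 5. Control 3 was more than a log2 unit under every other array, and control 5 overlapped with the treated values. The difference of 0.58 ± 0.26 (limma unadjusted p = 0.0427, adjusted p = 0.541) was 0.30 without control 3. PSMD14, the deubiquitinase of the lid, was at 8.85, 8.52, 9.62, 8.47 and 8.66 on controls 1 to 5 and at 8.90, 8.66, 8.86, 8.84 and 9.44 on treated arrays 1 to 5. Here control 3 was the highest of all 10 arrays. The difference of 0.12 ± 0.21 was 0.32 without control 3 and −0.0085 without treated 5, and neither passed an unadjusted limma p under 0.05. PSMD12 was at 10.31, 10.66, 10.98, 10.94 and 10.46 on controls 1 to 5 and at 10.87, 10.69, 10.72, 10.58 and 10.80 on treated arrays 1 to 5, with values spread widely within the controls and a difference of 0.063 ± 0.13. PSMD3 differed by 0.35 ± 0.13 (limma unadjusted p = 0.0193), PSMD2 by 0.21 ± 0.12 and PSMD6 by 0.073 ± 0.14. The difference of PSMD2 was 0.11 without control 3. That of PSMD6, which was highest among the controls on control 3, was 0.13 without that array and −0.053 without treated 5.

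The windows of PSMC4 (chr19:39970915-39971214, plus strand) and PSMD1 (chr2:231056617-231056916, plus strand) are the other 2 that hold the antioxidant core among genes whose groups did not overlap. In both the match lies after the start site, 27 bases in on the opposite strand for PSMC4 and 39 bases in on the gene strand for PSMD1.
PSMC4: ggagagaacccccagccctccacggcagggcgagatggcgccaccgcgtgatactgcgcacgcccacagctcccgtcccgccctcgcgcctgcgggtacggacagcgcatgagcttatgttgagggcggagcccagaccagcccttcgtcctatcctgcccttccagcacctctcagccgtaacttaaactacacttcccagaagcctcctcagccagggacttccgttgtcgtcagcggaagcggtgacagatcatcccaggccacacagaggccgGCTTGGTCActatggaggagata
PSMD1: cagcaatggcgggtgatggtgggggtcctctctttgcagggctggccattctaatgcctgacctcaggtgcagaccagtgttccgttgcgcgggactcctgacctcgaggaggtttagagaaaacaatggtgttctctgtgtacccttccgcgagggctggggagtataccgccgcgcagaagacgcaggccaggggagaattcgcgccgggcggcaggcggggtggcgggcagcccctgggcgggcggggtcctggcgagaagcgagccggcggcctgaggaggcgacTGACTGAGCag

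The activators, which open the barrel in place of the regulatory particle, and the inhibitor PSMF1 held no gene past an unadjusted limma p under 0.05 (0 of 5, and 0 at an adjusted p), with a median difference of 0.036. PSME1, an interferon-inducible activator subunit, was at 9.61, 9.70, 9.67, 9.69 and 9.83 on controls 1 to 5 and at 9.54, 9.69, 9.66, 9.68 and 9.92 on treated arrays 1 to 5. The groups overlapped fully, with a difference of −0.0017 ± 0.091 and a 95% interval of −0.20 to 0.20. PSME2, its partner, was at 8.55, 8.59, 8.51, 8.65 and 8.57 on controls 1 to 5 and at 8.52, 8.60, 8.61, 8.66 and 8.65 on treated arrays 1 to 5. It had the smallest error of all the proteasome genes, with a difference of 0.036 ± 0.075 and an interval of −0.13 to 0.20. The upper ends of both intervals, 0.20 in each, lay under the point values of all 7 standard beta subunits. But the intervals of PSMB1, PSMB3, PSMB4, PSMB6 and PSMB7 began under 0.20, and those of PSMB2 (0.22) and PSMB5 (0.23) above it. Without control 3 and treated 5, PSMB1 (0.17) and PSMB4 (0.19) differed by less than 0.20. Activators and beta subunits were not compared in a test. PSME1 and PSME2 lie near each other on chromosome 14, on opposite strands. Their windows (chr14:24135944-24136243, plus strand, and chr14:24146561-24146860, minus strand) hold both the antioxidant core and the interferon-stimulated element.
PSME1: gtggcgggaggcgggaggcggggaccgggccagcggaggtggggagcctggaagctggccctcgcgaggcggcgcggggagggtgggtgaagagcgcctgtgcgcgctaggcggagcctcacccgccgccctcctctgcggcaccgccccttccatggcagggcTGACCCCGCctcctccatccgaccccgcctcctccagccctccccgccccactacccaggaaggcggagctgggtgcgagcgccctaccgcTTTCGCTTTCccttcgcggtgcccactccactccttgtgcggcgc
PSME2: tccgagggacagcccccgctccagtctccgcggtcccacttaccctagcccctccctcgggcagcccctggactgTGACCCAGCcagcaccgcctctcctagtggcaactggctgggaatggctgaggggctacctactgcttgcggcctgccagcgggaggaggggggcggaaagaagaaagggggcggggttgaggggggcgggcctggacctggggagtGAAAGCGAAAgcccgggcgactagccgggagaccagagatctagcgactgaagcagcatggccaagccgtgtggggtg

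PSME3, a nuclear activator, was at 7.12, 7.02, 6.52, 6.94 and 6.91 on controls 1 to 5 and at 7.26, 6.99, 6.93, 7.04 and 7.03 on treated arrays 1 to 5. Control 3 was low and treated 1 high, and the remaining arrays lay close together. The difference was 0.15 ± 0.12, and 0.054 without control 3. PSME4, a large activator of the nucleus, was at 7.84, 8.0, 7.32, 7.94 and 7.84 on controls 1 to 5 and at 8.07, 7.93, 8.01, 7.95 and 8.43 on treated arrays 1 to 5. Control 3 was low and treated 5 high, and the others overlapped, with a difference of 0.29 ± 0.14 (limma unadjusted p = 0.0643) that was 0.083 without these 2 arrays. PSMF1 was near background, above it on 2 arrays of each group. It was at 1.91, 2.41, 2.16, 2.32 and 2.13 on controls 1 to 5 and at 1.86, 2.47, 1.92, 1.75 and 2.24 on treated arrays 1 to 5, a difference of −0.14 ± 0.15, with groups that overlapped.

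Of the 7 assembly factors measured, 1 was higher at an unadjusted limma p under 0.05, none had groups that did not overlap, and the median difference was 0.13. The chaperone of the regulatory particle base PSMD5 was the one, at 5.81, 5.61, 5.00, 5.54 and 5.62 on controls 1 to 5 and at 5.93, 5.81, 5.76, 5.84 and 5.81 on treated arrays 1 to 5. The treated arrays were close together, and control 3 was low. The difference of 0.31 ± 0.13 (limma unadjusted p = 0.0369, adjusted p = 0.526) was 0.18 without control 3. POMP, which matures the core, was at 9.90, 9.73, 10.29, 9.79 and 9.63 on controls 1 to 5 and at 9.95, 9.89, 10.06, 9.85 and 10.24 on treated arrays 1 to 5. Control 3 was the highest array and the groups overlapped. The difference of 0.13 ± 0.13 was 0.23 without control 3 (limma unadjusted p = 0.0342) and 0.068 without treated 5. PSMG2, a chaperone of the alpha ring, was at 8.38, 8.52, 8.71, 8.31 and 8.28 on controls 1 to 5 and at 8.37, 8.30, 8.33, 8.39 and 8.65 on treated arrays 1 to 5, a difference of −0.03 ± 0.11. PSMG1 differed by 0.13 ± 0.10, PSMG3 by 0.26 ± 0.19, PSMD9 by 0.064 ± 0.11 and PSMD10 by −0.067 ± 0.097. Without control 3 the difference was 0.078 for PSMG3, 0.028 for PSMD9 and −0.0032 for PSMD10, and without treated 5 it was 0.055 for PSMG1.

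**Figure D3:**
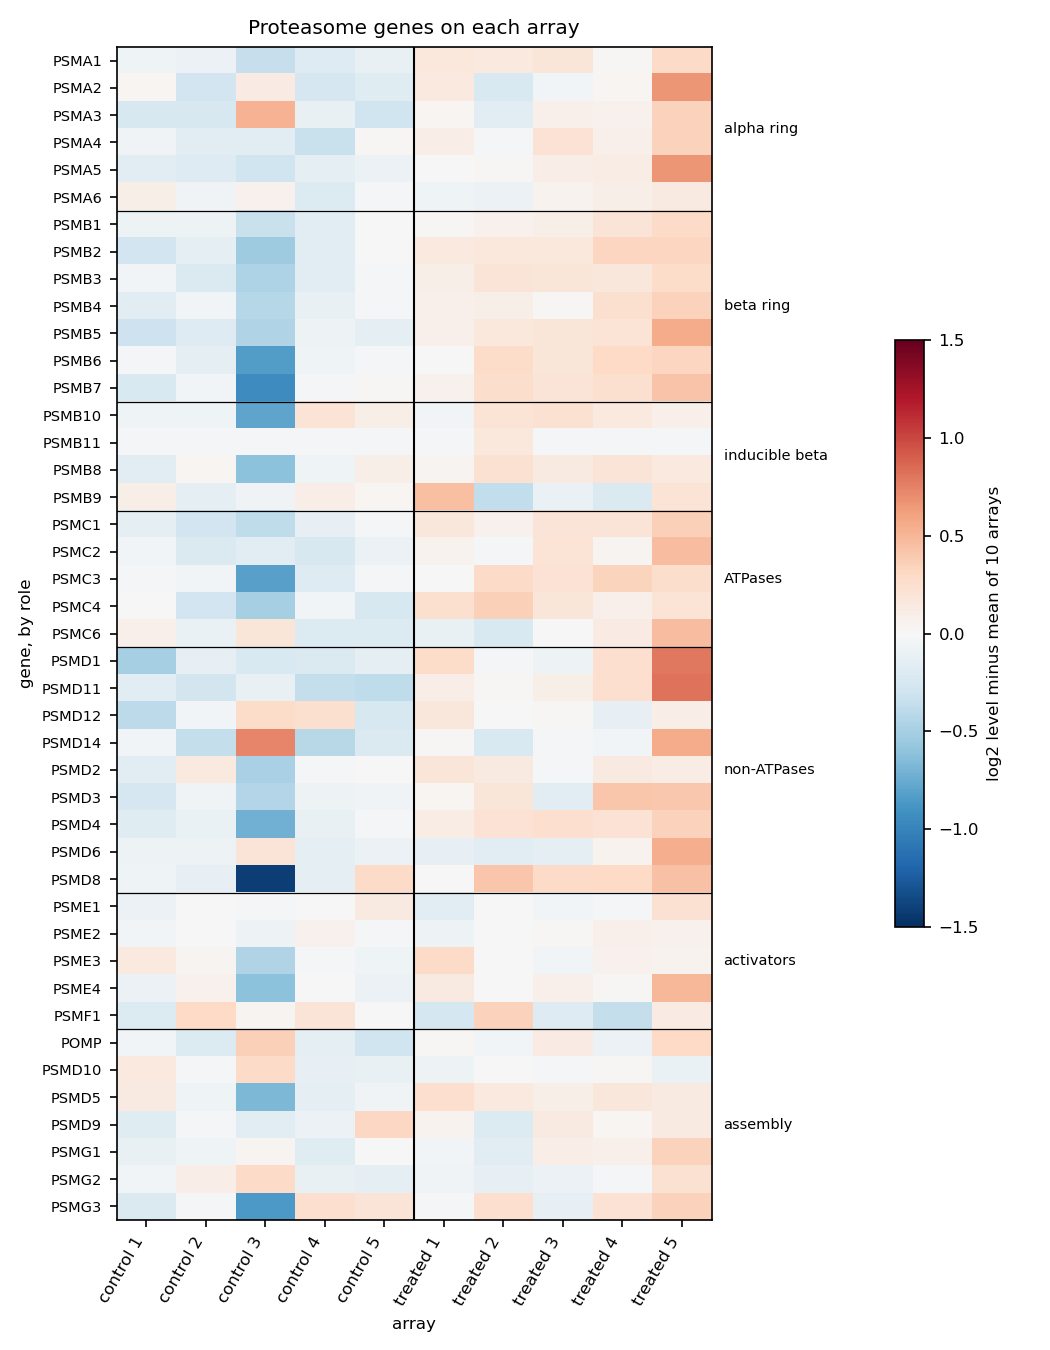
Log2 level minus the mean of the 10 arrays (colour) for the 43 proteasome genes tested (rows, by role) on each array (columns, controls left of the line). Most rows change from blue to red at the line; control 3 holds the strongest blue, as in PSMB7 and PSMD8, but also red rows such as PSMD14 and PSMA3, and treated 5 the strongest red.

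Arrays of one group differed among themselves, and 2 of them carried more of the difference than the rest. Of the 43 genes, 24 (55.8%) were highest on treated 5, where 15.0% of all genes tested and 17.2% of those above background on all arrays were highest. Control 3 was the lowest array for 23 (53.5%), against 26.5% and 32.3%. The mean over the 43 genes, after subtraction of each gene's 10-array mean, was 0.32 for treated 5, 0.054 to 0.11 for treated arrays 1 to 4, −0.26 on control 3 and −0.10 to −0.053 on the other controls. Control 3 did not lie low for every gene: PSMA3, PSMD12, PSMD14, POMP, PSMD10 and PSMG2 were highest on it. A list of NRF2 targets (10 measured, among them NQO1, GCLM and SLC7A11) had a mean of 1.41 on treated 5, between 0.38 and 0.47 on treated arrays 1 to 4, and between −0.71 and −0.56 on the controls. All 10 were higher at an unadjusted limma p under 0.05, against 4.48% of all genes tested. At an adjusted one 7 were, against 0.265%, and the median difference was 1.31.

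**Figure D4:**
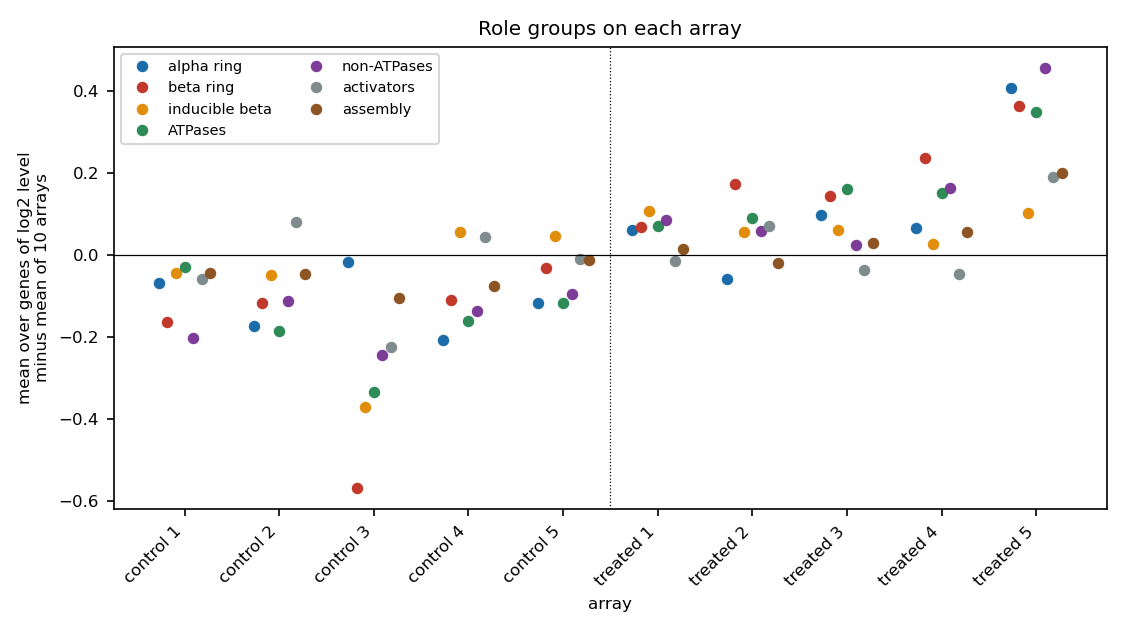
Mean over the genes of a role group of the log2 level minus the mean of the 10 arrays (vertical axis), for each array (horizontal axis); each point is a role group and has no error bar, since its genes are not replicates. The standard beta ring lies under 0 on all controls, at −0.57 on control 3, and over 0 on all treated arrays, while activators lie on both sides in both groups.

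Without control 3 and treated 5 the differences were smaller. Of the 43 differences 39 were positive, with a median of 0.18 in place of 0.26. At an unadjusted limma p under 0.05, 19 were higher, against 4.45% of all genes, and 18 of these were among the original 21. PSMB8, PSMD3 and PSMD8 left the count and PSMA3 entered it. Groups that do not overlap cannot come to overlap when arrays are left out, so the 16 such genes have no bearing here. The medians were 0.26 for the standard beta ring, 0.29 for the ATPases, 0.23 for the non-ATPases, 0.21 for the alpha ring, 0.011 for the activators and 0.024 for the assembly factors. Leaving out control 3 alone gave 23 higher genes, against 4.19% of all genes. Leaving out treated 5 alone gave 17, against 4.17%, without PSMB8, PSMD3, PSMD5 and PSMD8. It also gave 35 positive differences in place of 38.

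**Figure D5:**
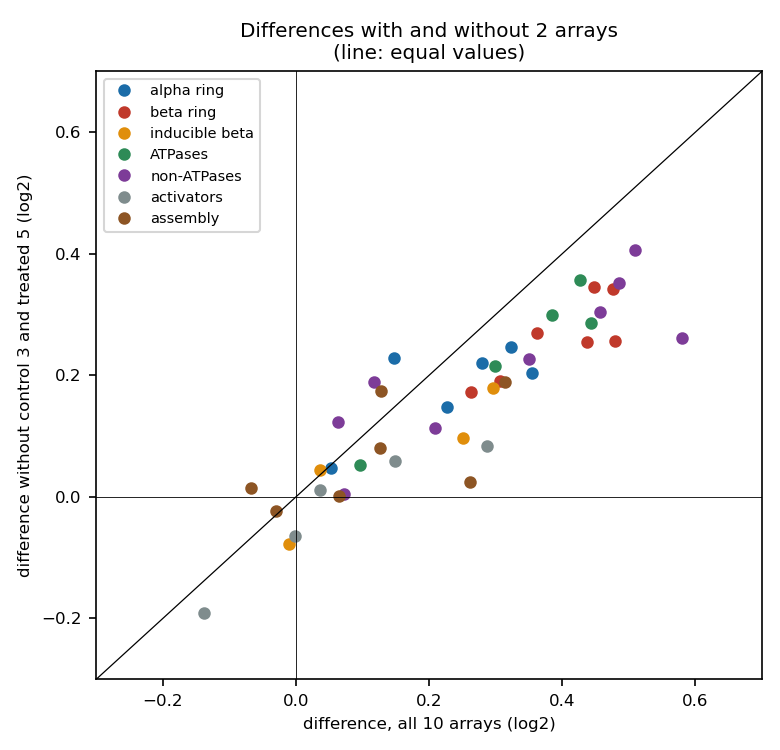
Log2 difference, treated minus control, of the 43 proteasome genes over all 10 arrays (horizontal axis) and without control 3 and treated 5 (vertical axis), with a line at equal values; each point is a gene, coloured by role. Most points lie under the line but over 0, with the 7 standard beta subunits between 0.17 and 0.35 on the vertical axis.

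Genes that have several probes allow a further look at single measurements. For 15 genes taken by the rule, 2 or more probes were above background on all arrays, and in 10 of them all such probes had differences of 1 sign. The other 5 were PSMC6, PSMD10, PSME1, PSMG1 and PSMC3IP, whose brightest probes all lay between −0.070 and 0.13. The 3 symbols outside the proteasome had differences of −0.07 for PSMC3IP, 0.029 for PSME3IP1 and −0.15 for PSMD6-AS2, and none was past an unadjusted limma p under 0.05. The 47 genes lie on 18 chromosomes, 8 of them on chromosome 14. The genes of that chromosome include PSMB5 and PSMC1, whose groups did not overlap, and PSMA6, PSMC6, PSME1 and PSME2, whose groups did.

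Among 27 measured genes of ubiquitin and proteasome partners, 5 were higher and 0 lower at an unadjusted limma p under 0.05. Groups did not overlap in 3, and the median difference was 0.045. Of all genes tested, 4.48% were higher and 4.48% lower, and in 1.46% every treated array lay above every control array. None of the 27 passed over all genes. ADRM1, a ubiquitin receptor of the regulatory particle, differed by 0.33 ± 0.13 (limma unadjusted p = 0.0255), and SEM1, a small lid subunit, by 0.15 ± 0.09. VCP, an ATPase that extracts ubiquitin-tagged proteins for the proteasome, differed by 0.59 ± 0.16 (limma unadjusted p = 0.00335, adjusted p = 0.282). Its cofactor NSFL1C differed by 0.50 ± 0.12 (limma unadjusted p = 0.0013, adjusted p = 0.193) and its cofactor NPLOC4 by 0.28 ± 0.11 (limma unadjusted p = 0.0303). In these 3 the groups did not overlap. UFD1, which acts with NPLOC4, differed by 0.29 ± 0.14 (limma unadjusted p = 0.058).

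ZFAND2A, a stress-inducible protein that binds the regulatory particle, differed by 0.55 ± 0.19 (limma unadjusted p = 0.0137), with groups that overlapped. USP14 and UCHL5, deubiquitinases that bind the regulatory particle, differed by −0.30 ± 0.27 (limma unadjusted p = 0.291) and −0.16 ± 0.12 (limma unadjusted p = 0.215). The mRNA of NFE2L1 differed by 0.093 ± 0.092 (limma unadjusted p = 0.333), and those of NGLY1 and DDI2, which process its protein, by −0.0021 ± 0.10 and −0.18 ± 0.12. The ubiquitin gene UBB differed by 0.15 ± 0.12 and the ubiquitin-activating enzyme gene UBA1 by −0.17 ± 0.18. After subtraction of each gene's 10-array mean, the partner list averaged 0.13 on treated 5 and −0.030 to 0.047 on treated arrays 1 to 4.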

How the data were processed

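The values used are the authors' deposited table of 48803 probes, taken as log10. Neither a header nor a label states the base. It was assumed because the highest values, 3.65 to 3.79 per array, then fall in the range of a bead scanner. A further table of scanner signal has 10 columns whose names match no sample, and it was not used here. How the authors treated background and normalization is not stated in the labels, and 24.2% to 25.2% of the probes of each array share its lowest value. On the deposited log values with no offset, tests do not depend on the base. There 20 proteasome genes were higher at an unadjusted p under 0.05, against 4.28% of all genes tested. Groups did not overlap in 15, against 1.65%.

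Here each value was made linear, 3 units were added, and the log2 values were quantile normalized between arrays. This understates the change of dim genes. Probes with a mean above the 25th percentile of all values (1.59) were kept (44606). Of 27578 probes with 1 symbol in the platform annotation, 27541 were matched by Entrez identifier to current symbols. Each gene was its brightest kept probe, which gave 17752 genes, 46 of them members. The fit was tested on simulated data.

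The test was limma 3.58.1 under R 4.3.3, two-sided and without covariates, on the 5 control and 5 treated arrays, and p-values were adjusted by Benjamini-Hochberg across the 17752 genes. Catalytic pairs were compared by exact permutation tests. The number of arrays limits the precision. The members, the role groups and the lists of partners, antigen processing genes, NRF2 targets and markers were chosen with earlier results of these data known. Values on every array are given for 15 genes chosen by role (the catalytic and inducible subunits, POMP, PSMD4, PSMD11, PSMD14, the activators and PSMF1) and for the largest and smallest difference of each role group. Of the partner and antigen lists, genes past an unadjusted p of 0.05 and NFE2L1 were named by rule, and the others were chosen after their values were seen. Alternatives covered the offset, normalization, filter, probe rule, variance model, array weights, replicate number and arrays left out; leaving out control 3 and treated 5 together was added after the data were seen. Whether replicate numbers pair the arrays was not settled. Figures were drawn with matplotlib 3.10.9.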

Additional observations from a re-analysis of the deposited data

Results flagged for a closer look

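For each of the 43 proteasome genes tested, and for the means of all of them and of the 7 role groups, the highest or lowest array of a group was compared with its nearest neighbour as a share of the group's range. In 19 of 101 sets of 5 values with any spread (18.8%) this gap passed Dixon's 95% critical value of 0.71. Chance would pass it in about 5%, and the sets share arrays. The share over all genes is not given, so the count is not a result about the proteasome genes. Over all genes tested, control 3 was the lowest array for 26.5% and the highest for 21.5%. Some sets are means of genes also counted singly, and the remaining treated values of PSMB11 were all at the lowest value.

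Treated 5 stood above the other treated arrays for the alpha subunit PSMA5 (log2 level 9.95), the catalytic subunit PSMB5 (9.32), the activator PSME4 (8.43) and the chaperone PSMG2 (8.65), and for the mean of the 43 proteasome genes (8.24). Control 3 stood under the other controls for the beta subunits PSMB6 (9.27), PSMB7 (8.41) and PSMB10 (6.89). It did so too for the ATPase PSMC3 (7.57), the ubiquitin receptor PSMD4 (7.87), the lid subunit PSMD8 (5.95) and PSME4 (7.32). Among group means it was low for the proteasome genes as a whole (7.66), for the standard beta ring (9.05) and for the inducible and tissue-specific beta subunits (4.16). The opposite direction was found for the alpha subunit PSMA3 (9.57) and the lid subunit PSMD6 (9.63), for which control 3 stood above the other controls. Control 1 stood low for the base subunit PSMD1 (7.31), and treated 2 high for PSMB11 (1.76), which was above background on no array.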

How the results depend on the processing

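Across 24 alternatives, 1 added after the data were seen, 17 to 23 proteasome genes were higher at an unadjusted limma p under 0.05. Of all genes tested, 3.03% (median scaling) to 6.15% (without control 5) were. No proteasome gene was lower, 0 passed over all genes, and the median difference of the proteasome genes was 0.18 to 0.30. Groups did not overlap in 14 to 19, a count that cannot fall when arrays are left out. Of all genes tested, 1.46% had such groups over all arrays and 2.64% without control 3 and treated 5. Without control 3, control 5 and treated 5 the share was 5.27%. Over all genes, 47 higher and 6 lower calls became 26 and 2 on the deposited log values and 71 and 16 with array weights, ranged over 26 to 42 and 1 to 8 with 1 array left out, and lower calls were 10 without control 3, control 5 and treated 5. The assembly factors' median was 0.024 without control 3 and treated 5. The PSMB7 and PSMB10 pair was 0.23 (adjusted exact p = 0.0317) with probes above background on at least 5 arrays, 0.17 (0.129) without control 3, control 5 and treated 5, 0.16 (0.0857) without control 3 and treated 5, and 0.17 to 0.27 with 1 array left out. The PSMB5 and PSMB8 pair was 0.34 (adjusted exact p = 0.0357) with all probes averaged and 0.10 to 0.24 with 1 array left out, and the PSMB6 and PSMB9 pair 0.31 to 0.61. The average for PSMB8 takes in its dimmest probe, which differed by −0.22 and was above background on 4 arrays of each group. Signs turned for genes near 0. PSMB9 was 0.0028 with an offset of 12, 0.0089 with no normalization, 0.090 with probes averaged and −0.13 to 0.080 with 1 array left out. PSME1 was 0.0030 with median scaling, 0.039 with no normalization, 0.039 on the deposited values, 0.067 with probes averaged and −0.058 to 0.037 with 1 array left out. PSMC6 was −0.054 with probes averaged and −0.0063 to 0.17 with 1 array left out, PSMD12 −0.026 to 0.14, PSMD14 −0.0085 to 0.32 and PSMG2 −0.092 to 0.037. PSMD6 was −0.053 without treated 5. The cause was not tested; leaving out 2 or 3 arrays raises the smallest exact p, and leaving out 1 does not. With the replicate number as a block, 21 proteasome genes were higher at an unadjusted limma p under 0.05, against 5.19% of all genes tested. Of these 21, 0 passed over all genes. There were then 40 higher and 5 lower calls over all genes. Deviations of same-numbered arrays correlated at −0.09 to 0.25. Replicates 2 and 5 matched best both ways, and replicates 1, 3 and 4 did not. Whether the numbers pair the arrays was not settled. Dim genes such as PSMB9 and PSMF1 are limited by signal over background.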
